A study of Mus musculus with 15 samples.

Results

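The collagen family comprised the 44 protein-coding genes whose symbols are of the form Col, a type number, a and a chain number. They were drawn from 54532 genes with an FPKM value in the mouse kidney table. FPKM here means fragments scaled to exon length and to a total set for each library. Members were found by mapping each Ensembl identifier to its symbol in GENCODE M21 on GRCm38, and no expression value was used to choose them. They fell into 11 fibrillar chains, 6 basement membrane chains and 27 other chains. The kidneys came from male C57BL/6 mice, 8 weeks old on arrival, with 5 mice sequenced in each of 3 groups after a study of 8 weeks. The control group (C) had a normal diet and the CKD model group (M) received chow with 0.25% adenine for 4 weeks, a diet whose crystals injure the tubules and lead to chronic kidney disease. The AA group had the same adenine chow and 30 mg/kg of asiatic acid (AA), a triterpenoid of Centella asiatica, by daily gavage. AA was given from the start of the adenine diet and went on after it, whereas all groups ate standard chow in the last 4 weeks, so the M and AA kidneys were taken after the adenine had been withdrawn. C and M mice were gavaged with the same dilute DMSO vehicle in saline. The M vs. C comparison addressed the collagen mRNA left by the diet, AA vs. M addressed treatment, and AA vs. C addressed how far treated kidneys stood from normal ones.

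A collagen molecule is a triple helix of alpha chains that is hydroxylated and folded in the endoplasmic reticulum, secreted as procollagen, trimmed and cross-linked. Fibrillar collagens, types I, III and V foremost in kidney, form the fibres of the interstitium and of scar, type IV collagen forms the sheet of every basement membrane, and the other types decorate fibrils, form beaded filaments or sit in cell membranes. Interstitial fibroblasts and pericytes make most fibrillar collagen in fibrotic kidney, podocytes make the glomerular chains of type IV, and tubular and endothelial cells add further chains.

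Several chains are neighbours in the genome, and the promoters of those that lead the results are shown here because the paired chains can be compared directly. Col4a1 and Col4a2 lie head to head on chromosome 8 with exons that share 22 bases, Col4a4 and Col4a3 lie head to head on chromosome 1 with 71 bases between them, and Col3a1 and Col5a2 lie tail to tail on chromosome 1 with 24614 bases between them. Promoter windows of 300 bases, 250 before to 50 after the start, came from RefSeq on GRCm38.p6 for 35 of the 44 chains. Col1a1, Col2a1, Col4a3, Col5a2, Col9a3, Col12a1, Col14a1, Col22a1 and Col26a1 had no entry. The Col4a1 window is chr8:11312777-11313076 on the minus strand, that of Col4a2 is chr8:11312555-11312854 on the plus strand, that of Col1a2 is chr6:4505368-4505667 on the plus strand and that of Col3a1 is chr1:45311288-45311587 on the plus strand. Capitals mark the CCAAT box, the GC box with the letters GGGCGG and the TATA box with the letters TATAAA. Both strands were searched, so that a match on the other strand appears as its reverse complement.
Col4a1: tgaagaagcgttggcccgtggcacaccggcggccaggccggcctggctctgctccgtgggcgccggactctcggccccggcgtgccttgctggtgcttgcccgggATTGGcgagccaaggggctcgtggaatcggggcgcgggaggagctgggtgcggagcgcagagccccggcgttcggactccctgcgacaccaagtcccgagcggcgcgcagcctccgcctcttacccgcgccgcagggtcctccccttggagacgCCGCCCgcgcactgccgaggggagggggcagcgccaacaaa
Col4a2: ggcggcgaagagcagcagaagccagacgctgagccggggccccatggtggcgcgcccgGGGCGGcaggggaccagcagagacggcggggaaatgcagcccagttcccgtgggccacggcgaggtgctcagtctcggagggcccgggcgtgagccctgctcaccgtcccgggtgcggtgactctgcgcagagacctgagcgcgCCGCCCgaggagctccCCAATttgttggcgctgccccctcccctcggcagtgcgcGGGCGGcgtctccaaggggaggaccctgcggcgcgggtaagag
Col1a2: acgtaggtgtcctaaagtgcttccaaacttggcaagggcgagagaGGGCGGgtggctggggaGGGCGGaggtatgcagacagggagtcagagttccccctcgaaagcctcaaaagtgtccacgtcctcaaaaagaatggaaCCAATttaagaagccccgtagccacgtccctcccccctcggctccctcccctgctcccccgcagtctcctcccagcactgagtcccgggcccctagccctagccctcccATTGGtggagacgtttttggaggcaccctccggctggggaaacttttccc
Col3a1: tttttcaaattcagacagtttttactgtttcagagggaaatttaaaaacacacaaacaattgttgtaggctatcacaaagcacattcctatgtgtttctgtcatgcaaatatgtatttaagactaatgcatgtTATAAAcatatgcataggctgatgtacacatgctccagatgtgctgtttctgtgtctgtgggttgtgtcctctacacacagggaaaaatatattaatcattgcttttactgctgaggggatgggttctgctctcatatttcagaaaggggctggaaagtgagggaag
Of these windows, those of Col4a1, Col4a2 and Col1a2 held a CCAAT box and a GC box, and that of Col3a1 held a TATA box alone. Over the 35 windows, the GC box occurred in 22 (62.9%) against 35.9% of 27025 genes, the CCAAT box in 12 (34.3%) against 37.9%, and the TATA box in 5 (14.3%) against 14.2%. No filter on gene type was applied to the 27025 genes, whereas all 35 chains are protein-coding, so the shares may compare unlike sets. A match says only that the letters are there.

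Depth differed between the libraries. The number of fragments behind a library, recovered from the smallest steps of its FPKM values with a factor of 2 unresolved, ranged from 13647020 to 28884427. Mitochondrial genes held 53.0 to 62.5% of them in C kidneys, 64.0 to 86.8% in M kidneys and 69.2 to 87.2% in AA kidneys. The fragments of all other genes numbered 6951358 to 13576597 in C, 2077628 to 7142897 in M and 2225764 to 4271191 in AA kidneys. Values near 0 in most M and all AA kidneys thus rested on fewer such fragments than in C kidneys. M mice 1 to 3 stood apart: between 10065 and 12219 genes were above 0 in them, against 23031 and 25449 in M mice 4 and 5, at least 19855 in every C mouse and at least 18688 in every AA mouse. Between 20 and 22 of the 44 collagen chains had no signal in M mice 1 to 3, whereas M mice 4 and 5 lacked 0 and 1. AA mouse 2, with 18965 genes above 0, had 2225764 fragments outside mitochondrial genes. M mice 1 to 3 had 2496667, 2077628 and 2770068 such fragments, and why they detected fewer genes was not tested. The labels name no batch that separates these mice, and collagen results are therefore also given against M mice 4 and 5 only. The labelled tissue was borne out by proximal tubule markers, all 10 of which were above 0 in every C library.

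On the deposited FPKM scale, summed collagen mRNA was higher in AA than in C kidneys, and on the TPM scale the groups overlapped. The summed FPKM of the 44 chains was 376, 303, 156, 306 and 351 in control mice 1 to 5, 305, 179, 324, 941 and 254 in M mice 1 to 5, and 816, 593, 972, 582 and 1139 in AA mice 1 to 5. Every AA kidney lay above every C kidney, while M mouse 4 lay among the AA kidneys and the other 4 M mice within the range of the C mice. With each library scaled to the same total (TPM), the sum was 591 to 1001 in C mice, 182 to 1662 in M mice and 400.3 to 1345 in AA mice, with means of 744 ± 156, 599.9 ± 617 and 1021 ± 386 (SD, n = 5 each). AA mouse 2 was then below every C mouse and M mouse 4 was the highest kidney. The TPM total includes mitochondrial genes. The ratio of a library's fragments to the total used in its FPKM scaling was 0.435 to 1.93 over all genes. Without mitochondrial genes it was 0.199 to 0.314, so the deposited scaling was nearer to a total that leaves them out. As a share of the fragments of non-mitochondrial genes, the chains held 0.603 to 1.33% in C, 0.701 to 3.23% in M and 1.86 to 3.72% in AA kidneys. On that scale every AA kidney again lay above every C kidney. Both FPKM and TPM are relative to the other RNA of a library, so a higher value is not a higher absolute amount. In these whole-kidney samples, more collagen-producing cells and more collagen mRNA per cell cannot be told apart.

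**Figure D1:**
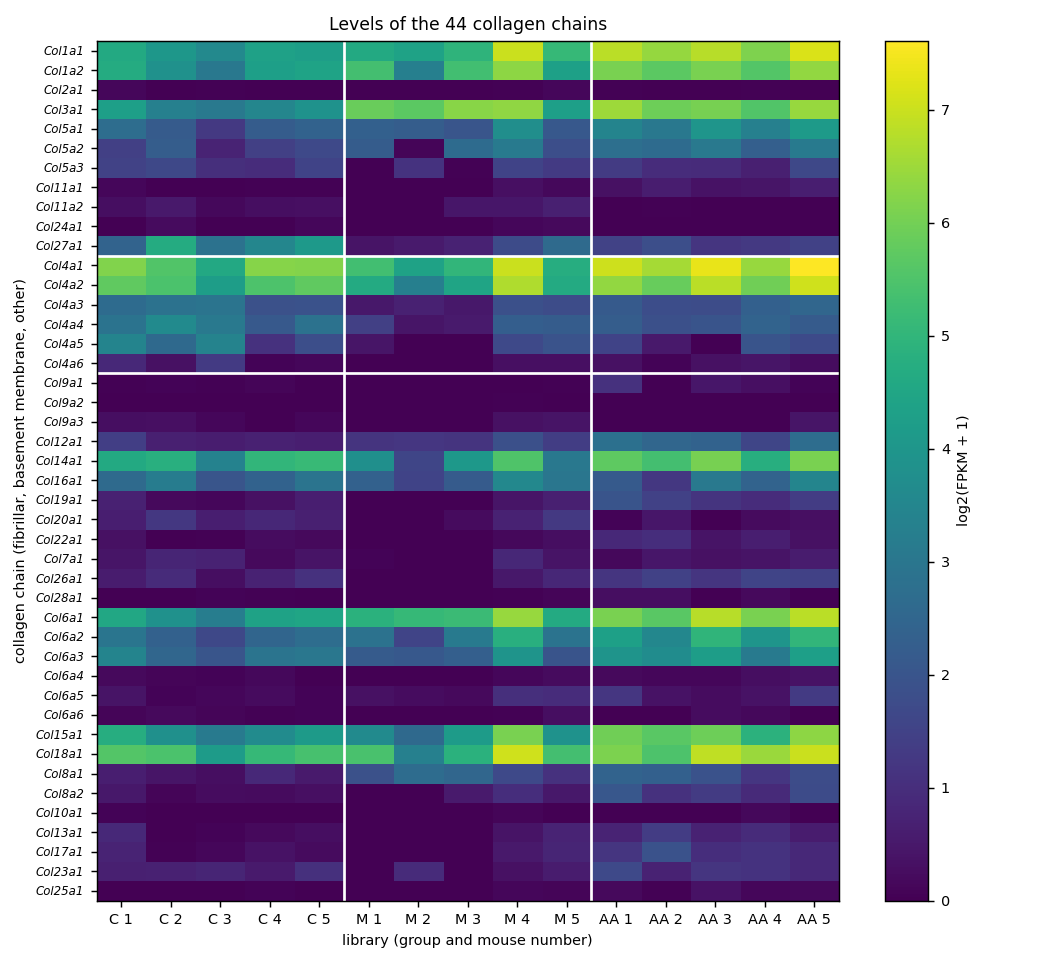
Levels of the 44 collagen chains (rows, fibrillar at the top, then basement membrane, then other chains) in the 15 kidneys (columns), coloured by log2(FPKM + 1). Dark rows are chains near 0 in all kidneys, and 20 to 22 chains are at 0 in M mice 1 to 3.

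The make-up of the collagen mRNA also differed between the groups, and as a share within a library it does not depend on how libraries are scaled. Fibrillar chains held 21.2 to 23.9% of the summed collagen FPKM in C kidneys, 33.0 to 47.7% in M kidneys and 27.4 to 35.5% in AA kidneys. Basement membrane chains held 36.9 to 42.4%, 16.2 to 25.2% and 26.3 to 29.7% in the same order. Neither share in C kidneys overlapped that in the M or the AA group, and every M mouse had a lower basement membrane share than any C or AA mouse. With M mice 1 to 3 left out, the 2 remaining M mice still had 33.0 and 33.1% fibrillar and 25.2 and 23.2% basement membrane. The 3 most abundant chains were Col4a1, Col4a2 and Col18a1 in all C mice, and Col3a1 was the most abundant in M mice 1 to 3.

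**Figure D2:**
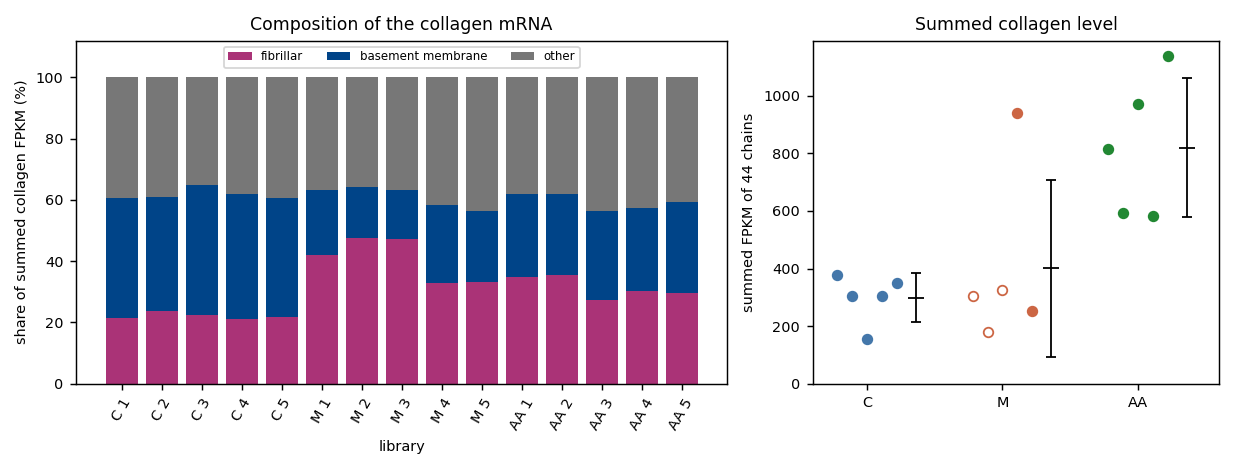
Share of the summed collagen FPKM by class in each kidney (left, bars adding to 100%) and the summed FPKM of the 44 chains (right, points per kidney, open for M mice 1 to 3, with the mean and SD of each group). Fibrillar chains hold 21.2 to 23.9% in C kidneys and at least 27.4% in all others, and all AA sums exceed all C sums on this FPKM scale, though not with TPM scaling.

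The chains of type I collagen, the most abundant protein of scar, were high in all AA kidneys. Col1a1 (ENSMUSG00000001506, chromosome 11, 94936224 to 94953042) showed FPKM values of 23.9, 15.4, 10.9, 19.3 and 18.4 in control mice 1 to 5, 23.8, 19.9, 29.9, 126 and 33.2 in M mice 1 to 5 and 111, 83.5, 109.6, 68.9 and 142 in AA mice 1 to 5. The AA and C groups did not overlap, and M mouse 4 was the only M mouse that reached the AA range. It rose in AA vs. C with a log2 fold-change (log2FC) of 2.49 on the log2(FPKM + 1) scale (standard error, SE, 0.27; limma adjusted p = 0.000166). The AA vs. M log2FC was 1.45 (SE 0.46, limma adjusted p = 0.0433), it was called in 2 of 10 fits that each left out 1 library, and it was 0.62 against M mice 4 and 5 only (limma adjusted p = 0.449). M vs. C gave 1.04 (SE 0.45, limma adjusted p = 0.275). Col1a2 (ENSMUSG00000029661, chromosome 6, 4504814 to 4541544), the partner chain whose promoter is shown above, had 24.7, 13.5, 7.23, 18.5 and 20.1 in C mice, 39.0, 8.73, 38.3, 78.7 and 19.1 in M mice and 66.3, 50.6, 67.0, 47.0 and 82.5 in AA mice. Again AA and C did not overlap, with a log2FC of 1.91 (SE 0.31, limma adjusted p = 0.00114), and 2 M mice lay within the C range. Its AA vs. M value of 1.05 did not pass (SE 0.48, limma adjusted p = 0.148).

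Type III collagen is the fine fibre of the early interstitial scar. Col3a1 (ENSMUSG00000026043, chromosome 1, 45311538 to 45349706) showed FPKM values of 18.6, 9.03, 7.52, 10.2 and 13.7 in control mice 1 to 5, 57.8, 51.1, 75.3, 81.0 and 18.4 in M mice and 88.4, 59.8, 65.0, 45.6 and 85.4 in AA mice. M mouse 5 fell just below the highest C mouse, and all other M and AA kidneys exceeded every C kidney. It rose in M vs. C by 2.08 (SE 0.41, limma adjusted p = 0.0296), the only collagen chain called higher there, and in AA vs. C by 2.47 (SE 0.28, limma adjusted p = 0.000209), and the AA vs. M value was 0.39 (SE 0.41, limma adjusted p = 0.551), or −0.12 with each library centred on its median. The M vs. C call was made in 3 of 10 leave-one-out fits, the log2FC against M mice 4 and 5 only was 1.71 (limma adjusted p = 0.249), and with TPM scaling the log2FC was 1.13 (limma adjusted p = 0.0859). Within a library, the ratio of Col3a1 to Col1a1 was 0.529 to 0.778 in C kidneys and 0.593 to 0.795 in AA kidneys. In M mice 1 to 5 the ratio was 2.43, 2.57, 2.52, 0.643 and 0.556, so that only M mice 1 to 3 had more Col3a1 than Col1a1.

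**Figure D3:**
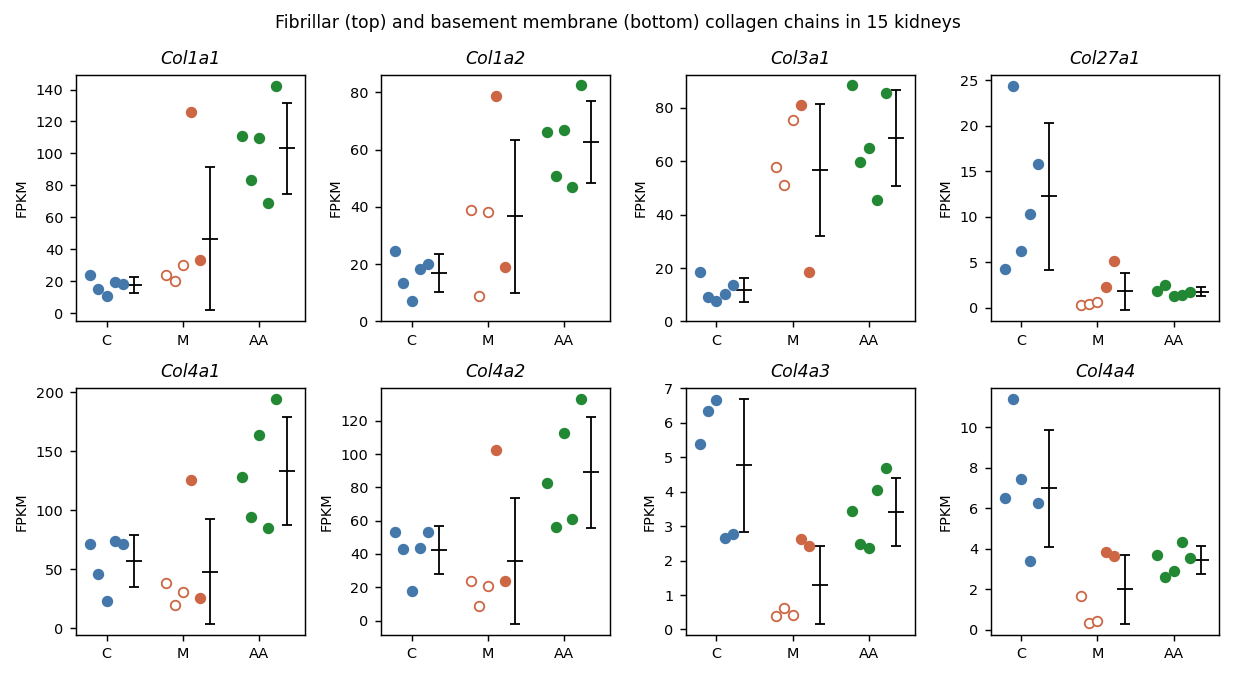
FPKM of 8 chains in each kidney of the C, M and AA groups (points, open for M mice 1 to 3, whose libraries detect the fewest genes; bar, mean and SD of 5 mice; vertical axes differ). Col1a1 and Col3a1 are higher in every AA than in every C kidney, and Col27a1 and Col4a4 are lower in most M kidneys.

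**Figure D4:**
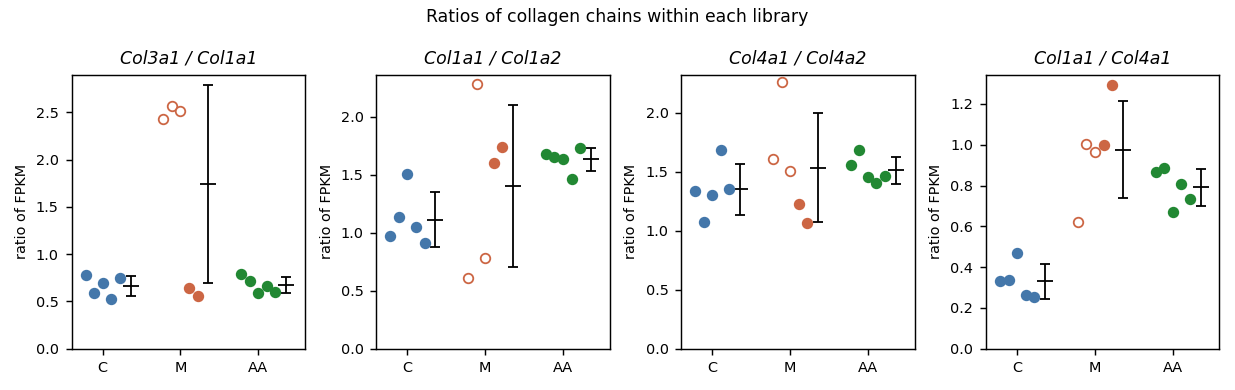
Ratios of FPKM between pairs of collagen chains within each kidney (points, open for M mice 1 to 3; bar, mean and SD of 5 mice). Col3a1 exceeds Col1a1 only in M mice 1 to 3, at 2.43 to 2.57.

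Type V collagen sits inside type I fibrils and sets their diameter. Col5a1 showed FPKM values of 5.55, 3.58, 1.39, 3.65 and 4.21 in C mice, 4.03, 3.74, 3.03, 12.6 and 3.24 in M mice and 9.70, 7.25, 14.7, 8.97 and 16.7 in AA mice. Col5a2 had 1.71, 3.70, 0.687, 1.70 and 2.20 in C mice, 3.62, 0.0798, 5.33, 7.60 and 2.57 in M mice and 5.93, 5.31, 7.37, 3.99 and 7.65 in AA mice. Both were higher in every AA than in every C kidney, and the M values overlapped both groups. Against C, Col5a1 rose by 1.43 (SE 0.30, limma adjusted p = 0.00441) and Col5a2 by 1.28 (SE 0.28, limma adjusted p = 0.00470). The Col5a2 value in M mouse 2 rested on 8 fragments. Col27a1 (ENSMUSG00000045672, chromosome 4, 63214004 to 63334991), a fibrillar chain best known from cartilage, went the other way. It showed FPKM values of 4.31, 24.4, 6.28, 10.3 and 15.8 in C mice, 0.331, 0.456, 0.662, 2.33 and 5.18 in M mice and 1.83, 2.54, 1.25, 1.41 and 1.79 in AA mice. Every AA kidney lay below every C kidney, and M mouse 5 alone among M mice reached the C range. It fell by 2.29 on the log2 scale in M vs. C (SE 0.51, limma adjusted p = 0.0467, called in 3 of 10 leave-one-out fits). With M mice 4 and 5 only the M vs. C value was −1.32 (limma adjusted p = 0.412). The chain fell by 2.06 in AA vs. C (SE 0.38, limma adjusted p = 0.00211).

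The other fibrillar chains were low. Col11a1 was listed above 0 in every AA kidney, from 0.265 to 0.560, against 0.00586 to 0.0977 in C kidneys and 0 in M mice 1 to 3, and Col5a3 ranged from 0 to 2.14 over all kidneys. Col11a2 was between 0.121 and 0.437 in C mice and above 0 in only 1 AA mouse. Col2a1, the cartilage collagen, and Col24a1 never exceeded 0.163 and entered no test.

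Type IV chains split into a ubiquitous pair and chains confined to specialised membranes. Col4a1 (ENSMUSG00000031502, chromosome 8, 11198423 to 11312826), part of every basement membrane, showed FPKM values of 71.4, 46.1, 23.2, 73.6 and 71.7 in C mice, 38.3, 19.8, 31.0, 126 and 25.7 in M mice and 129, 94.5, 164, 85.3 and 194 in AA mice. Col4a2 (ENSMUSG00000031503, chromosome 8, 11312805 to 11449287), its partner from the shared promoter region, had 53.4, 42.9, 17.8, 43.8 and 53.0 in C mice, 23.9, 8.76, 20.5, 103 and 24.0 in M mice and 82.4, 56.0, 113, 60.9 and 133 in AA mice. For both, every AA kidney exceeded every C kidney, and M mouse 4 was the only M mouse in the AA range. Col4a1 rose in AA vs. M by 1.72 (SE 0.47, limma adjusted p = 0.0219) and in AA vs. C by 1.25 (SE 0.36, limma adjusted p = 0.0176). Col4a2 rose by 1.67 in AA vs. M (SE 0.53, limma adjusted p = 0.0413) and by 1.07 in AA vs. C (SE 0.35, limma adjusted p = 0.0302). In the AA vs. M fits that left out 1 library, Col4a1 was called in 8 of 10 and Col4a2 in 4 of 10. Against M mice 4 and 5 only the values were 1.14 and 0.74 (limma adjusted p = 0.229 and 0.407), and with TPM scaling the AA vs. C value was 0.16 for Col4a1 and −0.01 for Col4a2. The ratio of Col4a1 to Col4a2 stayed between 1.07 and 2.26 over all kidneys.

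The glomerular chains had a different pattern. Col4a3, Col4a4 and Col4a5 form the mature filtration membrane of the glomerulus, and their loss causes Alport syndrome. Col4a3 (chromosome 1, 82586921 to 82722059), 5.65% of whose exon bases overlap an opposite-strand transcript, showed FPKM values of 5.38, 6.34, 6.66, 2.66 and 2.78 in C mice, 0.398, 0.634, 0.414, 2.63 and 2.43 in M mice and 3.45, 2.49, 2.37, 4.06 and 4.69 in AA mice. Col4a4 (chromosome 1, 82448423 to 82586849), its head-to-head neighbour, had 6.51, 11.4, 7.46, 3.38 and 6.25 in C mice, 1.70, 0.343, 0.458, 3.86 and 3.67 in M mice and 3.71, 2.61, 2.90, 4.36 and 3.56 in AA mice. M and C did not overlap for Col4a3, by the margin of 2.63 in M mouse 4 to 2.66 in C mouse 4, and for Col4a4 they did. The chain encoded on chromosome X, Col4a5, had 9.70, 5.07, 9.55, 1.12 and 2.55 in C mice, 0.359, 0, 0, 2.18 and 2.84 in M mice and 1.89, 0.446, 0, 2.91 and 2.25 in AA mice. The M vs. C log2FC values were −1.39 for Col4a3, −1.54 for Col4a4 and −1.66 for Col4a5 (SE 0.38, 0.43 and 0.53), and none passed the test (limma adjusted p = 0.0940, 0.10 and 0.151). When M mice 1 to 3 were left out, the values were −0.64, −0.67 and −0.66. With TPM scaling, Col4a3 and Col4a4 were called lower in M vs. C, at −2.27 and −2.46 (limma adjusted p = 0.0330 and 0.0287). Col4a6 was at or below 1.46 in every kidney.

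Type VI collagen forms beaded filaments around cells, and its 3 main chains were abundant. Col6a1 showed FPKM values of 22.8, 13.5, 8.37, 19.7 and 21.1 in C mice, 27.8, 32.9, 35.8, 86.0 and 24.3 in M mice and 66.6, 49.2, 109, 66.0 and 111 in AA mice. It was higher in all 5 M mice than in any C mouse, with a log2FC of 1.15 that did not pass (SE 0.39, limma adjusted p = 0.175), and it rose by 2.18 in AA vs. C (SE 0.32, limma adjusted p = 0.000714). Col6a2 had 6.76, 4.14, 2.14, 4.63 and 5.64 in C mice, 6.37, 1.95, 7.82, 27.1 and 6.46 in M mice and 19.1, 10.4, 30.5, 14.6 and 31.1 in AA mice. AA exceeded C in every mouse, by a log2FC of 1.92 (SE 0.34, limma adjusted p = 0.00171), while the M mice overlapped both groups. Col6a3 had 9.71, 4.65, 3.01, 6.64 and 7.08 in C mice, 3.53, 3.23, 3.95, 14.2 and 2.95 in M mice and 14.2, 12.0, 17.8, 7.62 and 18.5 in AA mice. It rose by 1.36 in AA vs. M (SE 0.41, limma adjusted p = 0.0345) and by 1.08 in AA vs. C (SE 0.31, limma adjusted p = 0.0181), although the groups overlapped in both. Col6a4, Col6a5 and Col6a6 did not exceed 1.47 in any kidney.

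Chains that bind to fibrils, the FACIT collagens, included 3 of the 10 rises in AA vs. M. Col14a1 showed FPKM values of 23.5, 27.1, 9.44, 31.1 and 34.1 in C mice, 12.8, 2.02, 15.7, 44.6 and 7.32 in M mice and 51.9, 39.3, 65.4, 26.2 and 66.2 in AA mice. Its AA vs. M log2FC of 1.99 was the largest of any chain in that comparison (SE 0.58, limma adjusted p = 0.0304), with M mouse 4 inside the AA range. Against M mice 4 and 5 only it was 1.31 (limma adjusted p = 0.195). In AA vs. C the log2FC of Col14a1 was 0.9998 (SE 0.36, limma adjusted p = 0.0485), just under the size needed for a call. The chain was called there in 3 of 10 leave-one-out fits, and the groups overlapped. Col12a1 had 1.68, 0.577, 0.524, 0.638 and 0.549 in C mice, 1.19, 1.29, 1.19, 2.61 and 1.6 in M mice and 5.97, 4.72, 4.25, 1.98 and 5.62 in AA mice. It rose by 1.06 in AA vs. M (SE 0.32, limma adjusted p = 0.0328) and by 1.6 in AA vs. C (SE 0.27, limma adjusted p = 0.00142), where the groups did not overlap. Col19a1 had 0.624, 0.137, 0.107, 0.279 and 0.547 in C mice, 0, 0, 0, 0.337 and 0.591 in M mice and 2.97, 1.75, 1.21, 0.952 and 1.54 in AA mice. All AA mice exceeded all M and all C mice, and the AA vs. M log2FC was 1.16 (SE 0.27, limma adjusted p = 0.0107). Col19a1 was above 0 in only 2 of 5 M mice and so entered that test mainly through the AA group. Col20a1 had 0.569, 1.36, 0.545, 0.816 and 0.604 in C mice, 0, 0, 0.172, 0.663 and 1.39 in M mice and 0.0571, 0.367, 0, 0.161 and 0.229 in AA mice. Every AA value was below every C value, but the log2FC of −0.60 was under the size needed for a call (SE 0.15, limma adjusted p = 0.0107). Among the other FACIT chains, Col16a1 ranged from 1.35 to 10.6 over all kidneys with log2FC values of −0.10 (0.64 with M mice 4 and 5 only), −0.06 and −0.16, in the order in which the comparisons were introduced, Col9a1, Col9a2 and Col9a3 did not exceed 1.10, and Col22a1 was 0.277 to 1.00 in AA mice and at most 0.264 elsewhere.

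The multiplexins of vascular and epithelial basement membrane zones, whose ends can be cleaved to fragments that act on vessels, were both called higher in AA vs. C. Col15a1 showed FPKM values of 25.6, 13.2, 7.74, 11.6 and 16.6 in C mice, 11.4, 5.06, 17.2, 66.9 and 13.6 in M mice and 61.3, 50.02, 59.7, 28.9 and 79.3 in AA mice. Col18a1, the source of endostatin, had 46.2, 42.7, 17.1, 33.4 and 41.5 in C mice, 41.8, 8.91, 28.3, 132 and 39.2 in M mice and 68.2, 43.6, 118, 87.2 and 127 in AA mice. Col15a1 was higher in every AA than in every C kidney, Col18a1 overlapped at AA mouse 2, and M mouse 4 lay within or above the AA range for both. Col15a1 rose by 1.86 in AA vs. C (SE 0.33, limma adjusted p = 0.00194) and by 1.68 in AA vs. M (SE 0.53, limma adjusted p = 0.0434), the latter called in 2 of 10 leave-one-out fits. Col18a1 rose by 1.25 in AA vs. C (SE 0.35, limma adjusted p = 0.0159), and its AA vs. M value of 1.19 did not pass (SE 0.57, limma adjusted p = 0.164).

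The short-chain and remaining types were scarce but set the groups apart in places. Col8a1, a chain of vessel walls and of the corneal membrane, showed FPKM values of 0.572, 0.356, 0.223, 0.830 and 0.465 in C mice, 2.67, 5.47, 4.75, 2.22 and 1.11 in M mice and 4.35, 4.01, 2.75, 1.29 and 2.42 in AA mice. All M and all AA kidneys exceeded all C kidneys, and Col8a1 was thus the second chain, beside Col6a1, whose M and C groups were separate with higher values in M. Its M vs. C log2FC was 1.41 (SE 0.33, limma adjusted p = 0.0567), just short of the threshold, and AA vs. C rose by 1.36 (SE 0.25, limma adjusted p = 0.00220). Col8a2, its partner, had 0.416, 0.0665, 0.184, 0.165 and 0.233 in C mice, 0, 0, 0.459, 0.995 and 0.407 in M mice and 3.17, 1.14, 1.48, 0.877 and 2.32 in AA mice. Above 0 in only 3 of 5 M mice, it rose by 1.02 in AA vs. M (SE 0.31, limma adjusted p = 0.0369) and by 1.15 in AA vs. C (SE 0.23, limma adjusted p = 0.00322), separate from C in every mouse. Col26a1 had 0.484, 0.916, 0.221, 0.654 and 1.11 in C mice, 0, 0, 0, 0.396 and 0.792 in M mice and 1.25, 1.79, 1.26, 1.97 and 1.78 in AA mice. No AA value overlapped M or C, and the AA vs. M log2FC was 1.11 (SE 0.26, limma adjusted p = 0.0108). This chain too was at 0 in M mice 1 to 3 and entered that test mainly through the AA group. Of the transmembrane chains, Col17a1 was 0.840 to 2.75 in AA mice and at most 0.734 in the others, while Col13a1, Col23a1 and Col25a1 overlapped between AA and C. Col7a1, the anchoring fibril chain, Col28a1 and Col10a1 did not exceed 0.815.

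**Figure D5:**
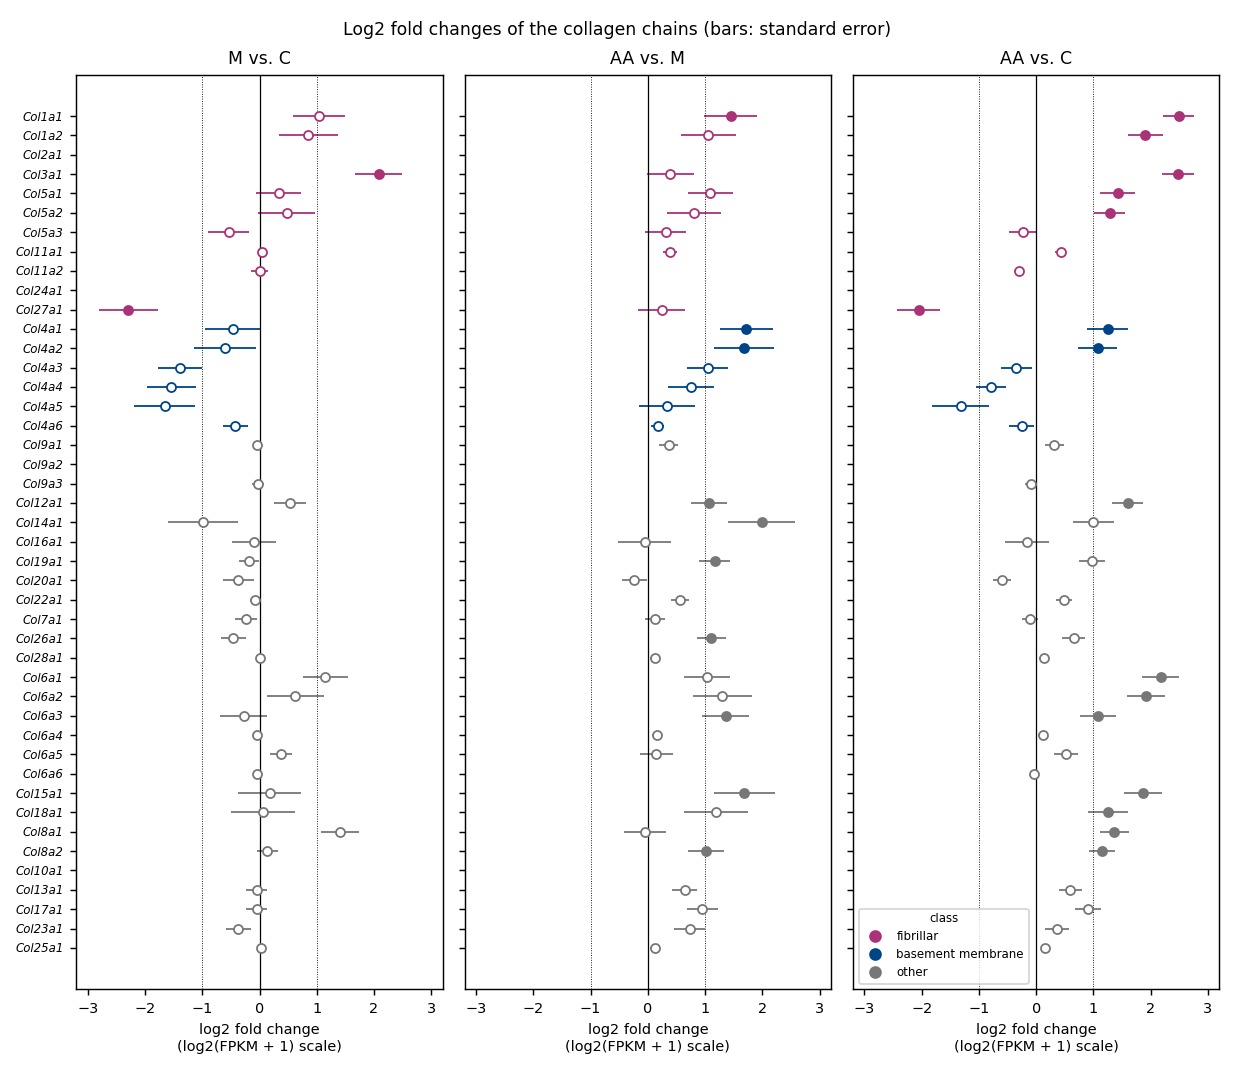
Log2FC and SE of each tested chain in each of the 3 comparisons, M vs. C on the left, AA vs. M in the middle and AA vs. C on the right (limma on log2(FPKM + 1), 5 mice a group; filled points are called, dotted lines mark a change of 1 in either direction). AA vs. C holds 15 filled points on the right and 1 on the left, M vs. C holds 1 on each side, and with TPM scaling the AA vs. C calls become 4 and 6.

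In M vs. C, few collagen chains passed the test. Of 40 chains tested, 1 (2.50%) was called higher, Col3a1, against 0.269% of all 21153 genes, and 1 (2.50%) was called lower, Col27a1, against 1.11%. A chain counted as called where its p, adjusted over every gene tested by the Benjamini-Hochberg method, did not exceed 0.05 and its value changed by 1 or more on the log2 scale. The values of M and C did not overlap for Col6a1 and Col8a1, higher in M (5.00% of chains against 1.05% of genes), and for Col4a3, lower in M (2.50% against 3.67%). The median log2FC was −0.05 for the chains and −0.12 for all genes, with 0.33 over the 9 fibrillar chains tested, of which 7 were positive, −1.0 over the 6 basement membrane chains, of which 0 were positive, and −0.04 over the 25 other chains. Limma called 0 basement membrane chains, of which 3 had an unadjusted p under 0.05 and limma voom on recovered fragments called 0, and 0 other chains, with 2 and 2 in the same order. With M mice 4 and 5 only, limma called 0 chains higher or lower (background 0% and 0%), 10 chains (25.0%, against 11.9% of genes) had an unadjusted p under 0.05 and the median was 0.18, while with M mice 1 to 3 only, 2 were higher and 4 lower (background 4.09% and 15.8%). TPM scaling, which moved the median of all genes from −0.12 to −0.58, gave 0 higher and 3 lower chains (7.50%, against 7.46% of genes called lower), and limma voom gave 3 higher (7.50% against 0.530%) and 0 lower. Both calls were lost without M mouse 1, 2 or 3 or without C mouse 2, 3, 4 or 5, and 5 chains were called without M mouse 5.

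In AA vs. M, the collagen chains leaned to higher values in treated kidneys. Of 37 chains tested, 10 (27.0%) were called higher in AA, against 11.7% of 19798 genes: Col1a1, Col4a1, Col4a2, Col6a3, Col8a2, Col12a1, Col14a1, Col15a1, Col19a1 and Col26a1. Limma called 0 lower, against 1.07% of genes, and 21 chains (56.8%, against 32.1% of genes) had an unadjusted p under 0.05 in either direction. Limma voom called 16 higher (43.2% against 18.7% of genes) and 0 lower (1.36% of genes). Log2FC values were positive for 34 of the 37 chains and for 62.3% of all genes, with medians of 0.75 and 0.17. All 8 fibrillar chains tested were positive with a median of 0.60, all 6 basement membrane chains with 0.90, and 20 of 23 other chains with 0.74. The groups were separate for 5 chains, Col11a1, Col17a1, Col19a1, Col22a1 and Col26a1, higher in AA (13.5% against 11.9%), and for 0 chains lower in AA (background 1.31%). All 5 were at 0 in M mice 1 to 3 and entered the test mainly through the AA group. Their separation was therefore not independent of how they were admitted. Col19a1 and Col26a1 are also among the 10 called. The calls depended on which M mice were used. Against M mice 4 and 5 only limma called 0 chains in either direction (background 2.39% higher and 6.23% lower), 3 chains (8.11%, against 26.8% of genes) had an unadjusted p under 0.05 and the median was 0.43, whereas against M mice 1 to 3 only it called 18 higher and 0 lower (background 19.5% and 2.8%). The count was 17 without M mouse 4 and 2 to 6 without M mouse 1, 2 or 3 or AA mouse 1, 2, 3 or 5. TPM scaling and centring each library on its median also gave 0 calls of chains, with 2.10% and 6.13% of all genes called higher. The values against M mice 4 and 5 only were 0.90 for Col6a3, 0.68 for Col8a2, 0.79 for Col12a1, 0.78 for Col15a1, 0.84 for Col19a1 and 0.71 for Col26a1.

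In AA vs. C, more collagen chains were called higher than lower on the deposited FPKM scale. Of 40 chains tested, 15 (37.5%) were called higher, against 10.2% of 21898 genes, and 1 (2.50%) was called lower, Col27a1, against 9.61%. The 15 were Col1a1, Col1a2, Col3a1, Col5a1 and Col5a2 among 9 fibrillar chains, Col4a1 and Col4a2 among 6 basement membrane chains, and Col6a1, Col6a2, Col6a3, Col8a1, Col8a2, Col12a1, Col15a1 and Col18a1 among 25 other chains. The groups were separate for 18 chains higher in AA (45% against 11.5%) and 3 lower, Col11a2, Col20a1 and Col27a1 (7.50% against 12.5%). The median log2FC was 0.56 for the chains and 0.09 for all genes, with 1.28 for fibrillar, −0.30 for basement membrane and 0.59 for other chains. Col4a3, Col4a4 and Col4a5 were at −0.34, −0.79 and −1.32 and were not called. The 3 comparisons share groups, so their values are not independent of each other. With TPM scaling 4 chains (10%) were called higher and 6 (15%) lower, against 3.94% and 27.0% of all genes, and the median of all genes moved from 0.09 to −0.39. Col1a1, Col3a1, Col6a1 and Col12a1 remained higher and Col27a1 lower under TPM. Leaving out C mouse 3 ended the calls of Col4a1, Col4a2 and Col6a3, at 0.96, 0.80 and 0.88, leaving out AA mouse 3 or 5 ended those of Col4a2 and Col6a3, C mouse 2 that of Col4a2 and AA mouse 1 that of Col8a2.

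Lists of genes that build, bind and cleave collagen differed in how many members were called. In a list of 31 maturation genes, Serpinh1, the chaperone of procollagen, was the 1 called higher in M vs. C (3.23% against 0.269% of all genes), from 16.6 ± 4.24 in C to 43.9 ± 10.8 in M (SD, n = 5 each), with a log2FC of 1.35 (SE 0.29, limma adjusted p = 0.0431) and no overlap. In AA vs. M, the cross-linking enzyme Loxl2 was the 1 of 30 tested that rose (3.33% against 11.7% of all genes), from 3.93 ± 2.98 to 10.1 ± 3.47, by 1.34 (SE 0.43, limma adjusted p = 0.0455). The AA and M values of Loxl2 overlapped. In AA vs. C, Serpinh1, the N-propeptide protease Adamts2 and the cross-linkers Lox and Loxl2 were called higher (12.9% against 10.2% of all genes) and 0 of 31 lower, Lox by 2.21 (SE 0.23, limma adjusted p = 0.000133). Its FPKM was 2.11, 1.06, 1.14, 2.15 and 1.58 in C mice, 16.4, 0.318, 6.06, 8.26 and 3.36 in M mice and 11.6, 12.6, 7.4, 14.1 and 9.68 in AA mice. Lox was thus higher in every AA than in every C mouse, with M mouse 2 below all C mice. Against M mice 4 and 5 only, Serpinh1 was at 1.2 in M vs. C and Loxl2 at 0.84 in AA vs. M.

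Of 10 proteins that bind fibrils, 6 (60% against 10.2% of all genes) were called higher in AA vs. C, namely the small proteoglycans Dcn, Bgn and Lum, fibronectin (Fn1), Sparc and tenascin (Tnc). Lum rose by 2.17 (SE 0.34, limma adjusted p = 0.00101) and Bgn by 1.58 (SE 0.30, limma adjusted p = 0.00236). Tnc rose by 1.07 (SE 0.37, limma adjusted p = 0.0426), although its AA and C values overlapped. In M vs. C limma called 0 of 10 (4 at an unadjusted p under 0.05, 1 by limma voom), with Lum at 2.20 (SE 0.54, limma adjusted p = 0.0657) and Sparc at 1.37 (limma adjusted p = 0.151), and in AA vs. M it called 0 of 10 (2 at an unadjusted p under 0.05, 1 by limma voom), with Bgn at 1.21 (limma adjusted p = 0.0715) and Thbs1 at 0.79 (limma adjusted p = 0.137). Of 10 receptors, 1 was called higher in AA vs. M (10% against 11.7% of all genes) and 2 in AA vs. C (20% against 10.2%). The integrin Itga11, which binds type I collagen, was called higher in AA vs. M by 1.12 (SE 0.36, limma adjusted p = 0.0463), with 0.70 against M mice 4 and 5 only, and in AA vs. C by 1.04 (SE 0.32, limma adjusted p = 0.0238). Its groups overlapped in both comparisons. The uptake receptor Mrc2 rose by 1.28 in AA vs. C (SE 0.34, limma adjusted p = 0.0121), and in M vs. C limma called 0 (1 at an unadjusted p under 0.05, 0 by limma voom), with the leukocyte receptor Lair1 at 0.46 (limma adjusted p = 0.219) and Ddr2 at 0.60 (limma adjusted p = 0.354). Of 8 cleavage genes tested, the membrane-bound collagenase Mmp14 was the 1 that rose in M vs. C (12.5% against 0.269% of all genes), from 5.90 ± 3.24 to 22.7 ± 10.51 (SD, n = 5 each), by 1.79 (SE 0.39, limma adjusted p = 0.0418), with no overlap, and was at 2.44 with M mice 4 and 5 only. Mmp2, Mmp14, the lysosomal protease Ctsk and the inhibitor Timp2 were called higher in AA vs. C (50% against 10.2%). In AA vs. M limma called 0 of 8 (1 at an unadjusted p under 0.05, 1 by limma voom), with Timp3 at 1.22 (limma adjusted p = 0.0556) and Timp2 at 0.82 (limma adjusted p = 0.177).

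Markers of other kidney cell types were measured in the same libraries, and some lists differed between the groups. Over all genes, 0.269% were called higher and 1.11% lower in M vs. C. In AA vs. M these shares were 11.7% and 1.07%, and in AA vs. C 10.2% and 9.61%. The summed FPKM of 12 fibroblast and mural cell markers was 54.9 to 141 in C kidneys, 109 to 334 in M kidneys and 159 to 231 in AA kidneys. The median of these sums was 92.9 in C, 210.1 in M and 181.5 in AA. Pdgfra, Pdgfrb, Dcn, Lum and Cdh11 (41.7% of the 12) were called higher in AA vs. C. Vim (8.33%) was called higher in M vs. C and lower in AA vs. M, at 2.35 and −1.56, or 1.38 and −0.58 with M mice 4 and 5 only. The list did not move as one. Log2FC values were positive for 8 of the 12 in M vs. C, 5 in AA vs. M and 8 in AA vs. C, with medians of 0.23, −0.04 and 0.43. Acta2, for example, had means of 28.9 in C, 24.9 in M and 19.2 in AA. Between 9 and 12 of the 12 were above 0 in each kidney. Dcn and Lum stand in this list and among the fibril-binding proteins. The 10 macrophage markers summed to 18.8 to 109.5 in C, 145 to 422 in M and 103 to 156 in AA. Of these, 3 (30%) were called higher in M vs. C, 1 (10%) lower in AA vs. M, and 4 (40%) higher and 1 (10%) lower in AA vs. C. The 10 proximal tubule markers summed to 3182 to 13233 in C, 98.1 to 545 in M and 172 to 572 in AA. Of these, 7 (70%) were called lower against C in each adenine group. The 8 podocyte markers summed to 6.04 to 17.9 in C, 3.71 to 27.8 in M and 13.1 to 18.5 in AA. Wt1 (12.5% of the 8) was called higher in AA vs. M at 1.5, or 0.43 with M mice 4 and 5 only. In AA vs. C, Wt1, higher, and Nphs1, lower, were among those called. The 8 endothelial markers summed to 32.4 to 100.6, 25.3 to 50.3 and 22.9 to 61.1, with Egfl7 (12.5% of the 8) called lower in AA vs. C. In M vs. C limma called 0 podocyte and 0 endothelial markers (0 and 2 at an unadjusted p under 0.05, 0 and 0 by limma voom). No marker of these lists was at 0 in all libraries of a group. Their part in the collagen values was not tested.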

How the data were processed

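RNA sequencing of 15 whole kidneys was analysed, with groups and mouse numbers taken from the labels. Per the submitters' processing notes and the methods, the authors trimmed reads with fastp, aligned them to mm10 with HISAT2 2.0.5, counted them with featureCounts 1.5.0-p3 and deposited FPKM values for each gene and kidney. The annotation release is not given in the sources used here, so lengths and symbols are those of GENCODE M21, which lacked 37 identifiers.

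The deposited FPKM values were analysed as log2(FPKM + 1) with limma 3.58.1 in R 4.3.3 (intensity trend), for genes detected by 5 or more of the 10 kidneys in a contrast. Calls required p values, adjusted by Benjamini-Hochberg across every gene fitted, not to exceed 0.05 and log2 changes to reach 1 in size. Python 3.11.15 with numpy 2.4.6, pandas 2.3.3 and matplotlib 3.10.9 was used. The fits were also run on simulated normal values given the same spread in both groups. That run did not cover groups of unequal spread, and no result here rests on it. Libraries apart from their group were found by Dixon's ratio at 0.71. Fragments were recovered from the step between low FPKM values, which were whole multiples of it within 0.02 for 97.7% to 99.3% of those examined. TPM scaling divides by a total that includes mitochondrial genes.

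Fragment numbers limit precision for chains near 0, and p-values measure the spread between mice. The chains not tested were Col2a1, Col9a2, Col10a1 and Col24a1 in every comparison, and also Col6a6, Col9a3 and Col11a2 in AA vs. M. Same-numbered mice of different groups deviated together with correlations from −0.127 to 0.218 over 23493 genes, so the numbers were not taken as pairs. Values in every library were given for chains called in any comparison, for Col1a1, Col1a2, Col3a1 and Col4a1 to Col4a5, and for up to 2 chains each way with the largest change among those without overlap. From the lists of maturation, binding, receptor and cleavage genes, called genes were named, or the 2 with the smallest p where none was called. The call of 1 marker gene is not reported here. The members, lists and rules were chosen with earlier results of these data known. Alternatives were other pseudocounts, filters, scalings and fits, subsets of the M mice and each library left out in turn.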

Additional observations from a re-analysis of the deposited data

Results flagged for a closer look

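In the M group, mouse 4 lay far above the other 4 mice for 10 chains. Its FPKM was 126 for Col1a1, 126 for Col4a1, 103 for Col4a2, 12.6 for Col5a1, 86.0 for Col6a1, 27.1 for Col6a2, 14.2 for Col6a3, 2.61 for Col12a1, 66.9 for Col15a1 and 132 for Col18a1. The next highest M mouse had 33.2, 38.3, 24.0, 4.03, 35.8, 7.82, 3.95, 1.6, 17.2 and 41.8 in the same order. In the C group, mouse 1 stood above the others for Col12a1, at 1.68 against 0.638 in the next. Dixon's ratio was tested in 69 groups of 5 mice, and chance flags about 1 in 20 groups. Of the 11 values, 10 came from the same mouse and are not independent. Without M mouse 4, 17 chains were called higher in AA vs. M in place of 10.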

How the results depend on the processing

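The AA vs. C contrast was the most stable when each library was left out, with 16 chains called and 13 to 19 in those fits. The 16 were 37.5% of chains higher and 2.50% lower, against 10.2% and 9.61% of genes. The contrast gave 16 with the replicate block (the mouse number as a factor) and 25 with a pseudocount of 0.1. With TPM it gave 10 (10% higher and 15% lower, against 3.94% and 27.0% of genes). With limma voom on recovered fragments it gave 27 (60% higher and 7.50% lower, against 21.7% and 14.2%). Its median log2FC of 0.56 became 1.23 and 1.42 with pseudocounts of 0.1 and 0.01, 1.2 for genes with a mean FPKM of at least 1, 0.17 with TPM and 1.89 with voom. For AA vs. M, 10 calls became 5 with the replicate block, 4 without the filter, 3 with mitochondrial genes left out, 2 with quantile normalization, 16 with voom, 18 with M mice 1 to 3 only, and 0 with TPM, centring, library quality weights or M mice 4 and 5 only, and ranged from 2 (without M mouse 2 or 3) to 17 (without M mouse 4). Its median of 0.75 became 1.34 and 1.73 with pseudocounts of 0.1 and 0.01, 0.24 with centring, 0.33 with weights, 1.54 with voom and 1.21 with M mice 1 to 3 only. For M vs. C, 2 calls became 1 with the replicate block, a pseudocount of 0.1 or 0.01 or weights, 0 without the filter or with M mice 4 and 5 only, 6 with M mice 1 to 3 only and 5 with all 15 libraries in one fit, and ranged from 0 (without M mouse 1, 2 or 3 or C mouse 2, 3, 4 or 5) to 5 (without M mouse 5). Its median of −0.05 became −0.94 with a pseudocount of 0.01, 0.32 with centring, −0.78 with voom and −0.40 with M mice 1 to 3 only.

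Among the 23 chains whose FPKM is given mouse by mouse, these changed sign, all but Col4a2 in AA vs. C being values that were not called in the main comparison. In M vs. C, TPM gave −0.79 for Col15a1, −0.94 for Col18a1, −0.11 for Col1a2, −0.48 for Col5a1, −0.20 for Col5a2, −0.23 for Col6a2 and −0.030 for Col8a2, centring gave 0.18 for Col19a1 and 0.082 for Col6a3, weights gave 0.17 for Col4a1, 0.21 for Col4a2 and 0.27 for Col6a3, and Col8a2 was −0.50 with voom and −0.75 with a pseudocount of 0.01. With M mice 4 and 5 only, Col19a1 was 0.14, Col20a1 0.18, Col4a1 0.12, Col4a2 0.33 and Col6a3 0.18, and with M mice 1 to 3 only Col15a1 was −0.43, Col18a1 −0.61 and Col8a2 −0.090. Leaving out C mouse 3 or M mouse 4 gave −0.016 and −0.33 for Col15a1 and −0.18 and −0.41 for Col18a1, which reached 0.53 without M mouse 2, and without M mouse 4 Col8a2 was −0.013. In AA vs. M, Col27a1 was −0.28 with centring, −0.24 with weights, −0.19 with quantile normalization and −0.73 with M mice 4 and 5 only, Col3a1 was −0.12 with centring, Col4a5 was −0.18 with centring, −0.12 with weights and −0.66 with M mice 4 and 5 only, and Col4a4 was −0.12 there. Col8a1 was 0.044 with weights, 0.057 with voom, 0.54 with M mice 4 and 5 only, and 0.13, 0.13 and 0.09 without AA mouse 4, M mouse 2 and M mouse 3, with −0.27 as its lowest, without M mouse 5, and Col20a1 was 0.13 with M mice 1 to 3 only. In AA vs. C, TPM gave −0.071 for Col14a1 and −0.013 for Col4a2. Other chains changed sign too, among them Col16a1, to 0.64, and Col5a3, to 0.07, in M vs. C with M mice 4 and 5 only. The cause of these changes was not tested. Over the values of these 23 chains under the alternatives, 450 of 505 in AA vs. C, 395 of 549 in AA vs. M and 480 of 548 in M vs. C kept their direction and their side of the threshold.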
